A study of Mus musculus with 5 samples.

Results

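Myh9, Mprip, Actn1, Lima1 and Mical3 are 5 mRNAs whose proteins build, regulate or remodel contractile actin filaments, and they are described here in RNA that was precipitated with tagged CYFIP1 from mouse hippocampus. They are 5 of the 4713 genes on which the deposited lists place a region. They were selected on measured values: Myh9, Actn1, Lima1 and Mical3 for their low anti-HA reads against the wild-type control, and Mprip for its high anti-HA reads against IgG. All entries on a gene were taken, which gave 60 entries at 37 distinct places. Because both contrasts chose the members, their values are given as descriptions, with counting intervals and no test.

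CYFIP1 binds FMRP, the RNA-binding protein lost in fragile X syndrome, and belongs to the WAVE complex that starts new actin branches. RNA immunoprecipitation was done on hippocampus of C57BL/6 mice with anti-HA in 2 knock-in mice, with mouse control IgG in these 2 animals too, and with anti-HA in 1 wild-type mouse. The first group reads RNA caught by the tag, the IgG group reads RNA caught by an unspecific antibody in the same genotype, and the wild-type group reads RNA caught by anti-HA where no tag is present. The labels do not state the allele beyond knock-in, nor age or sex. The single wild-type library serves both mice, so a spread between mice over wild type holds no variation of that control. The knock-in mice are only numbered in the labels, so a spread between them may be technical.

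Nonmuscle myosin II pulls on actin filaments, and kinases and myosin phosphatase set how active it is by adding and removing phosphate on its light chains. Alpha-actinins and LIMA1 hold filaments in bundles, and MICAL enzymes oxidize actin so that filaments come apart. In neurons this machinery shapes growth cones and dendritic spines, and in blood vessels and glia it carries tension and cell movement.

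Each deposited list sets 1 HA library over 1 control and gives, per called region, the reads that each of them holds. There are 4191 regions in mouse 1 and 1920 in mouse 2 over IgG, next to 5355 and 5362 over wild-type HA. HA reads inside the regions range between 64055 and 166760 per list, and reads outside them are not used here, which leaves library depth unknown. A fold below takes all regions of a gene together, as the ratio of their HA to their control reads, divided by the median ratio of all regions with at least 20 reads in that list. Against IgG those medians are 2.89 in mouse 1 and 0.947 in mouse 2, and against wild type 1.41 and 1.75. Intervals are exact 95% counting intervals, and since PCR reads are not independent molecules they cover counting error only. Cyfip1 mRNA, the check of the labels, held 6101 HA against 67 IgG reads in mouse 1 and 6186 against 115 in mouse 2, and the wild-type library held 431 and 416 reads in the matching lists. All coordinates are on GRCm38, which is mm10.

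Coding sequence under called regions of the members is shown first, from the GENCODE M21 transcripts. Reads are known per region and not per base. The Myh9 and Actn1 bases lie under regions with 3 and 5 HA reads in mouse 1, and most reads of these genes lie in other regions. Capitals mark the start codon of Myh9 and Actn1, the stop codon of Lima1 and Mical3, and in Mprip the bases inside the called region. Myh9-201 gives its first 300 coding bases, from chr15:77812913-77813212 on the minus strand. Lima1-201 gives its last 300 coding bases, from chr15:99780297-99780596 on the minus strand. Actn1-201 gives its first coding exon of 105 bases, chr12:80259987-80260091 on the minus strand. Mical3-217 gives its last 300 coding bases, which lie in exons between 120934668 and 120935214 of chromosome 6 on the minus strand. Mprip-201 gives an inner exon of 148 bases, chr11:59764380-59764527 on the plus strand.
Myh9-201 first coding bases: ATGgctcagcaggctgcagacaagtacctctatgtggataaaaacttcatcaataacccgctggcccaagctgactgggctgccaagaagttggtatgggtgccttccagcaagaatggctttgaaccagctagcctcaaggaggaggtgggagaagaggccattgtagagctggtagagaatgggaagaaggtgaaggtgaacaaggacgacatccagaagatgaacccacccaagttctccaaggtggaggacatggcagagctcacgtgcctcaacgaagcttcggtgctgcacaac
Actn1-201 first coding exon: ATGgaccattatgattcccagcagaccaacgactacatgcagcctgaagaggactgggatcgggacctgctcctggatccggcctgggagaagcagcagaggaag
Lima1-201 last coding bases: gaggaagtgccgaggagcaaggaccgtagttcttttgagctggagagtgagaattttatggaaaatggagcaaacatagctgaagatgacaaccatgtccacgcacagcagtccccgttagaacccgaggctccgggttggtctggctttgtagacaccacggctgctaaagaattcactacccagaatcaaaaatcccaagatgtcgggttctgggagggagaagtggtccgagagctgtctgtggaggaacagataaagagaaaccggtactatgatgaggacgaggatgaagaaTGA
Mical3-217 last coding bases: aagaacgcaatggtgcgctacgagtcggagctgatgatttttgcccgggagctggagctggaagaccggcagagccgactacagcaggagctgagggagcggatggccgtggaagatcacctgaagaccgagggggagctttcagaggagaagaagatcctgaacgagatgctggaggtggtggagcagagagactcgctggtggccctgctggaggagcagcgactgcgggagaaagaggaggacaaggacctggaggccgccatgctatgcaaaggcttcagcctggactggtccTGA
Mprip-201 inner exon: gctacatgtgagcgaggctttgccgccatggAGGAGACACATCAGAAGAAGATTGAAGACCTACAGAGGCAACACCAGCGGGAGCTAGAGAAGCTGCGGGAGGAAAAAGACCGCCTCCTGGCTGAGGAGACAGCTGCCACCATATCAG

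Set against the wild-type control, 4 of the 5 members stood far below the list median in both mice, and set against IgG they did not stand together. Over wild type 1188 genes passed a minimum of 20 reads in the lists of both mice, and 13 of them were at 0.25-fold or less in both mice, which is 1.09%, and Myh9, Lima1, Actn1 and Mical3 are among the 13. Over IgG 390 genes passed it, and 19 of them were at 4-fold or more in both mice, which is 4.87%, and Mprip is among the 19. Since these contrasts chose the members, nothing is read from the shares. Over all measured genes the median fold was 1.19 and 1.07 over wild type and 0.675 and 0.874 over IgG, in mice 1 and 2.

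**Figure D1:**
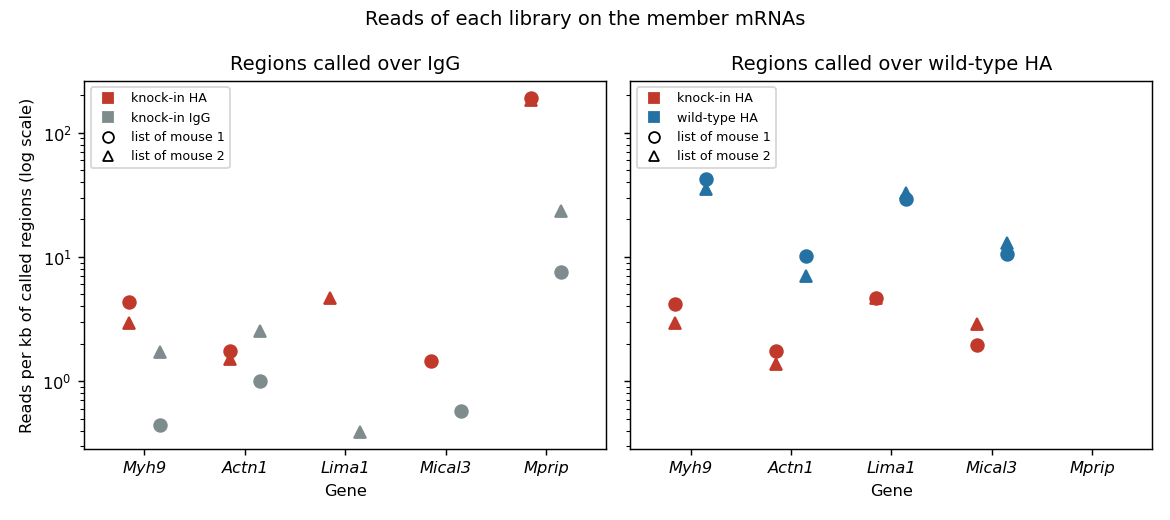
Reads per kb of called regions (log scale) on each gene, for the knock-in HA library (red) left of its control (IgG grey, wild-type HA blue), with circles for the lists of mouse 1 and triangles for those of mouse 2. Over wild-type HA all 4 genes with regions have fewer knock-in HA reads than wild-type reads, such as Myh9 with 4.18 and 2.92 against 42.1 and 35.4 reads per kb, while Mprip has 191 and 182 HA reads per kb over IgG and no region over wild type. Listed regions on the chromosome of Mprip are short and hold at least 29 HA reads each, so its height is not comparable with that of the other genes.

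Myh9 encodes the heavy chain of nonmuscle myosin IIA, the motor of contractile filaments in cells outside striated muscle. The gene lies at chr15:77760587-77842175 on the minus strand. Over wild type it held 130 knock-in HA reads against 1307 wild-type reads in mouse 1, and 84 against 1020 in mouse 2. Per kb of called region that is 4.18 HA against 42.1 wild-type reads in mouse 1 and 2.92 against 35.4 in mouse 2. Both HA libraries were thus below the wild-type library by about an order of magnitude before any scaling. The fold was 0.0704 (interval 0.0584 to 0.0844) in mouse 1 and 0.0471 (interval 0.0372 to 0.0588) in mouse 2, a mean of -4.12 ± 0.41 on the log2 scale (SD, n = 2), or -3.29 with the pooled read ratio of the list as the scale. It was the lowest of the 1188 genes.

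Against IgG the same mRNA was on the other side of the list median. Myh9 held 126 HA against 13 IgG reads in mouse 1, and 84 against 49 in mouse 2. The read ratio was 9.69 in mouse 1 and 1.71 in mouse 2, and the fold was 3.35 (interval 1.89 to 6.46) and 1.81 (interval 1.26 to 2.63). Both intervals lie above the list median, and the mean was 1.30 ± 0.63 on the log2 scale (SD, n = 2), or 0.55 ± 1.10 with the pooled read ratio as the scale, which puts mouse 1 at 2.51-fold and mouse 2 at 0.853-fold. With only the regions below the authors' adjusted p of 0.05 the mean was 0.37 ± 0.69, so the side over IgG depends on these choices. HA reads on Myh9 were of the same order in both mice, and it is the IgG library that differed, at 0.447 reads per kb in mouse 1 and 1.70 in mouse 2. Across all regions of the 2 lists the IgG libraries differed the same way, at 1.79 and 4.31 reads per kb. The difference is thus not particular to Myh9.

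The low ratio over wild type held in every called region of Myh9, which together cover 31.1 kb in mouse 1 and 28.8 kb in mouse 2 of the 81.6 kb gene. In mouse 1 the region over the 3′ end of the gene, chr15:77760541-77777070, held 96 HA against 1003 wild-type reads. It covers 27 exon pieces of protein-coding transcripts, with untranslated parts included and alternative boundaries counted apart. The next region upstream, chr15:77781061-77792460 with 13 such pieces, held 22 against 224. The region chr15:77812696-77813265, which holds the start codon shown above, held 3 against 39. The gene start itself, chr15:77841766-77842335 over the first, noncoding exon, held 5 against 19 in mouse 1 and 2 against 19 in mouse 2. In each of the 5 regions of mouse 1 and the 3 of mouse 2 the wild-type library held more reads than the HA library, with ratios between 0.0726 and 0.263. Without the region with the most reads the mean fold over wild type was -3.63 on the log2 scale.

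**Figure D2:**
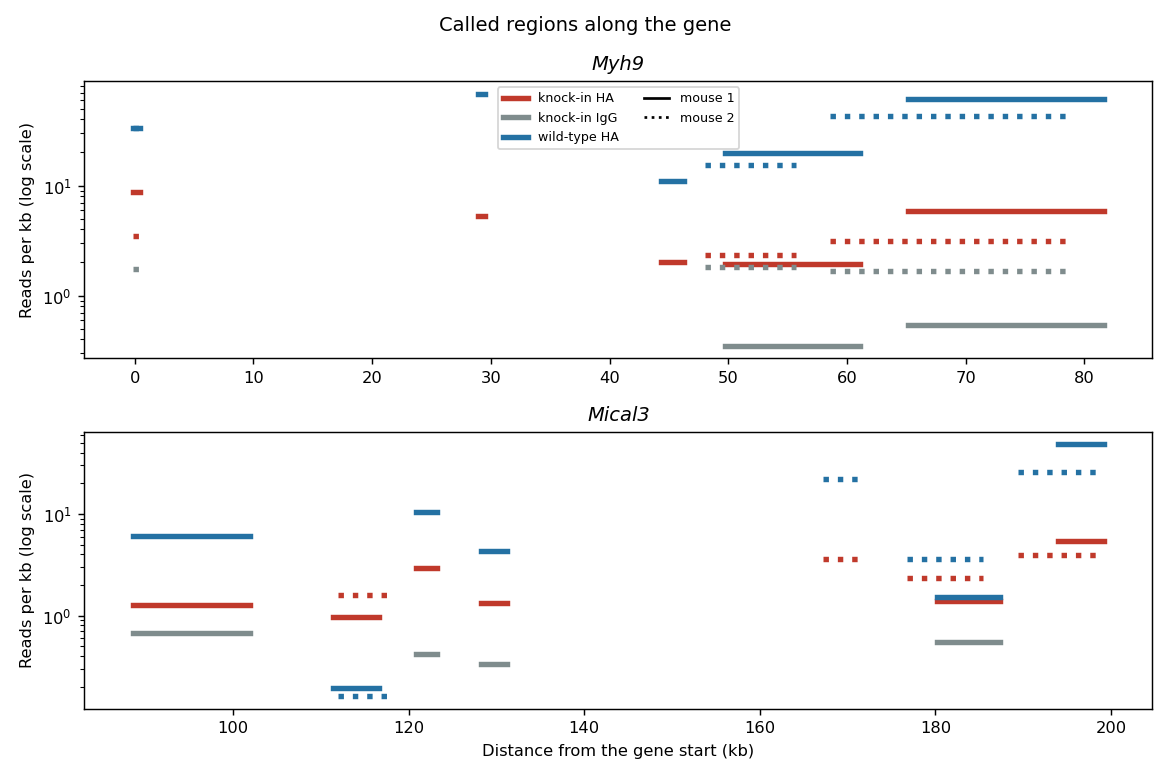
Called regions of Myh9 (top) and Mical3 (bottom) by distance from the gene start in kb, at the height of their reads per kb (log scale), for knock-in HA (red), knock-in IgG (grey) and wild-type HA (blue), with solid lines for mouse 1 and dotted lines for mouse 2. Regions with 0 control reads show no control line. The wild-type line lies above the HA line all along Myh9, whereas on Mical3 it lies below it around 111 to 118 kb, where the regions held 5 and 10 HA reads against 1 and 1 wild-type reads.

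Mprip encodes an adaptor that ties myosin phosphatase to actin filaments, so its protein sits beside the motor that Myh9 encodes. The gene lies at chr11:59661305-59780860 on the plus strand. Over IgG it held 656 HA against 26 IgG reads in 11 regions of mouse 1, and 547 against 71 in 8 regions of mouse 2. The regions cover 3.44 and 3.01 kb, at 191 HA against 7.56 IgG reads per kb in mouse 1 and 182 against 23.6 in mouse 2. Both HA values were above both IgG values, and Mprip, whose regions are short and overlap exons, had the most HA reads per kb of region among the 5 members. Listed regions on its chromosome 11 have a median length of 215 bp and at least 29 HA reads in mouse 1 and 30 in mouse 2. On chromosomes 12 and 15 over IgG, listed regions go down to 2 HA reads. The reads per kb of Mprip are thus not comparable with those of the other members. The fold was 8.72 (interval 5.90 to 13.4) in mouse 1 and 8.14 (interval 6.35 to 10.6) in mouse 2, a mean of 3.07 ± 0.07 on the log2 scale (SD, n = 2).

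The regions of Mprip are small and touch exons from the 5′ to the 3′ end. The largest, chr11:59775376-59776235 near the 3′ end, held 194 HA against 9 IgG reads in mouse 1 and 187 against 20 in mouse 2. One near the start, chr11:59662501-59662930, held 84 against 1 and 60 against 7. The exon shown above lies under chr11:59764411-59764625, which held 34 HA against 0 IgG reads in mouse 1 and 32 against 6 in mouse 2. With the floor of 3 counts in place of 0, the ratio there was 11.3 in mouse 1, a value set by that floor. Its counting interval has a lower limit of 8.73 and no upper limit. In mouse 2 the ratio was 5.33 (interval 2.20 to 15.6).

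The level of Mprip cannot be set apart from its chromosome. Regions on chromosome 11 number 60 and 52 over IgG, each holds at least 29 HA reads in mouse 1 and 30 in mouse 2, and their median ratio was 21.9 and 8.06, against 2.89 and 0.947 in the whole lists. Set against that median, the fold of Mprip came to 1.15 in mouse 1 and 0.956 in mouse 2. Neither list over wild type has a region on chromosome 11 at all, so the lack of an Mprip region there says nothing about Mprip. The antisense genes 1700007J10Rik and Gm12264 overlap 5 and 2 of the Mprip regions, and with the strand of the reads not given their reads and those of Mprip cannot be told apart. Of the 50-base stretches of Mprip transcripts 7.94% also occur in other genes, the pseudogene Mrip-ps among them.

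**Figure D3:**
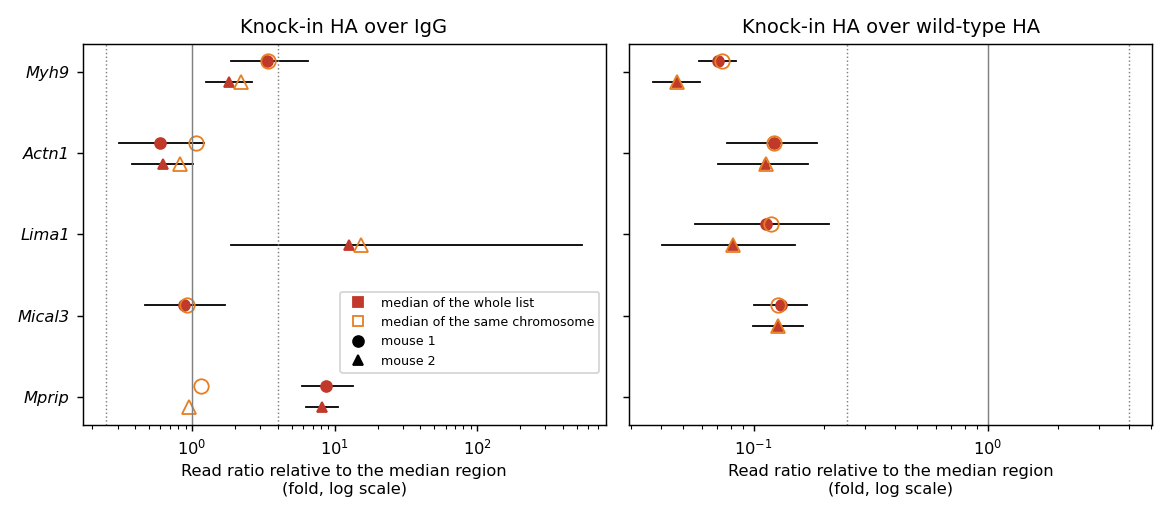
Fold of knock-in HA over IgG (left panel) and over wild-type HA (right panel) per gene and mouse on log axes, with red symbols relative to the median region of the whole list, bars for the 95% counting interval and open orange symbols relative to the median of the same chromosome. Dotted lines mark 0.25-fold and 4-fold. Over wild type all symbols lie at 0.131-fold or less on either scale, while Mprip over IgG moves to 1.15-fold and 0.956-fold on the scale of its chromosome.

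Actn1 encodes alpha-actinin 1, a dimer that crosslinks antiparallel actin filaments. The gene lies at chr12:80167547-80260371 on the minus strand. Over wild type it held 26 HA against 151 wild-type reads in mouse 1, and 26 against 133 in mouse 2, so that both HA libraries were below the wild-type library. The fold was 0.122 (interval 0.0772 to 0.186) in mouse 1 and 0.112 (interval 0.0704 to 0.171) in mouse 2, a mean of -3.10 ± 0.09 on the log2 scale (SD, n = 2). At the gene start, chr12:80258881-80260560 held 5 HA against 35 wild-type reads in mouse 1, and that region contains the first coding exon shown above. The region chr12:80188601-80193800 in mouse 2 held 7 against 11, 0.364-fold with an interval of 0.120 to 1.03, and it is the only Actn1 region over wild type below the authors' adjusted p of 0.05, which alone gives -1.46. Without the region with the most reads in each mouse the mean was -2.38 ± 1.31.

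Over IgG, Actn1 held 26 HA against 15 IgG reads in mouse 1, and 29 against 49 in mouse 2. The fold was 0.599 (interval 0.306 to 1.22) and 0.625 (interval 0.381 to 1.01), and both intervals include the list median. On the scale of chromosome 12 the fold was 1.06 in mouse 1 and 0.829 in mouse 2. Without the region with the most reads the mean turned to 0.43 on the log2 scale, against -0.71 with it. Of the 50-base stretches of Actn1 transcripts 9.87% also occur in Actn4, Gm47766 or Gm47767, so part of its reads could have been assigned among them.

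Lima1 encodes LIMA1, also called EPLIN, which bundles actin filaments and slows their turnover. The gene lies at chr15:99778470-99875456 on the minus strand, and each list that holds it has 1 region, over the last exon. Over wild type the region held 12 HA against 75 wild-type reads in mouse 1, and 12 against 84 in mouse 2. The fold was 0.113 (interval 0.0561 to 0.210) and 0.0816 (interval 0.0406 to 0.150), with a mean of -3.38 ± 0.33 on the log2 scale (SD, n = 2). Over IgG only mouse 2 has the region, with 12 HA reads against 1 IgG read, which is 12.7-fold with a wide counting interval of 1.88 to 542. The antisense gene Gm17058 covers the same regions, and it shares their reads and its place among the 13 genes.

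Mical3 encodes a monooxygenase of the MICAL family, whose enzymes oxidize actin, and it also acts in the docking of secretory vesicles. The gene lies at chr6:120931707-121130999 on the minus strand. Over wild type it held 71 HA against 384 wild-type reads in 6 regions of mouse 1, and 83 against 372 in 4 regions of mouse 2. Both sums of HA reads were below the wild-type sums. The fold was 0.131 (interval 0.100 to 0.169) in mouse 1 and 0.127 (interval 0.0993 to 0.162) in mouse 2, a mean of -2.95 ± 0.03 on the log2 scale (SD, n = 2). With only the regions below the authors' adjusted p of 0.05 the mean was -0.90, and without the region with the most reads it was -2.20. Over IgG it had regions in mouse 1 alone, with 38 HA against 15 IgG reads, 0.875-fold (interval 0.470 to 1.71). Mouse 2 has just 4 regions on the whole of chromosome 6 over IgG, so its empty entry for Mical3 is not a low value.

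Mical3 was the member whose regions differed most among themselves. The 3′ end of the gene carried most of its wild-type reads. There chr6:120931801-120937000, which contains the stop codon shown above, held 28 HA against 252 wild-type reads in mouse 1, and chr6:120932001-120941600 held 38 against 247 in mouse 2. These regions hold 3226 and 3026 exon bases, of which 359 are coding in each. Further upstream, chr6:120943601-120950800 held 10 against 11 in mouse 1 and chr6:120945601-120954200 held 20 against 31 in mouse 2. The region chr6:121029001-121042400, over 12 exon pieces of protein-coding transcripts, held 17 against 82 in mouse 1.

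In 1 stretch of Mical3 the HA library held more reads than wild type in both mice, and its coding bases, 156 in 2 exons of another Mical3 transcript between 121014828 and 121016859 of chromosome 6 on the minus strand, are shown in lower case as the coding part of that stretch.
Mical3 inner exons: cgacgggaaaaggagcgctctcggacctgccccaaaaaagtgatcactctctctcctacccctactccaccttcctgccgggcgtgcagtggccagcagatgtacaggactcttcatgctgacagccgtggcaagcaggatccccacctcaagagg
The regions over them, 5.2 and 6.2 kb long, held 5 HA reads against 1 wild-type read in mouse 1, which is 3.54-fold with an interval of 0.396 to 167. In mouse 2 there were 10 against 1, which is 5.71-fold with an interval of 0.813 to 248. Both intervals include the list median, and the reads are not tied to these exons. The deposited annotation splits the locus into 2 identifiers with the symbol Mical3, and this stretch belongs to the upstream identifier, ENSMUSG00000003178. That identifier alone held 29 HA against 108 wild-type reads in mouse 1, which is 0.190-fold with an interval of 0.122 to 0.289, and 10 against 1 in mouse 2. The downstream identifier, ENSMUSG00000051586, held 42 against 276 in mouse 1 (0.108-fold, interval 0.0760 to 0.149) and 73 against 371 in mouse 2 (0.112-fold, interval 0.0863 to 0.145).

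Where a region of one mouse has the same coordinates in both of its lists, the reads of all 3 libraries fall on the same bases, and such regions were compared where the libraries together held at least 20 reads. On the 3′ region of Myh9 in mouse 1 there were 96 knock-in HA reads, 1003 wild-type HA reads and 9 IgG reads. The corresponding region of mouse 2, chr15:77763106-77783625, held 64 knock-in HA, 882 wild-type HA and 34 IgG reads. In unscaled reads the knock-in HA library thus lay between the controls on Myh9 in both mice. Library depth is unknown, and with the pooled read ratio as the scale Myh9 over IgG was 0.853-fold in mouse 2. The wild-type reads were 111 times the IgG reads in mouse 1 (interval 58.5 to 244), and 1 of the 778 regions compared had a higher ratio. In mouse 2 they were 25.9 times (interval 18.4 to 37.7), with 1 of 644 regions higher. Over all compared regions the median of that ratio was 1.75 in mouse 1 and 0.452 in mouse 2, and its 95th percentile was 12 and 5.82. The wild-type reads in this ratio also took part in choosing the members. Nothing is therefore read from their ranks or percentiles, here or in the next paragraph.

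The other members with shared coordinates also had more wild-type HA than IgG reads. The Lima1 region of mouse 2 held 12 knock-in HA reads, 84 wild-type HA reads and 1 IgG read, and no compared region of that mouse had a higher ratio of wild-type to IgG reads. Actn1 held 26 knock-in HA, 151 wild-type HA and 15 IgG reads in the lists of mouse 1. In mouse 2 these were 26, 133 and 44 reads in that order. Mical3 held 34, 118 and 14 in mouse 1, in the 3 of its shared regions with at least 20 reads. Not all these regions passed the 95th percentile of their mouse. In mouse 1 the regions below it were 1 of Myh9 at 6.33, 1 of Actn1 at 8.29 and 2 of Mical3 at 2.75 and 9.11, and in mouse 2 both regions of Actn1 at 3.13 and 2.20. That Myh9 region held 19 wild-type reads and 0 IgG reads, which were set to 3. Its interval starts at 4.67 and has no upper limit, so its place below the percentile rests on that floor. The knock-in IgG and wild-type HA libraries differ in both antibody and genotype, and the wild-type mouse is 1 animal, so antibody, genotype and animal cannot be told apart here. Fewer cells of a type and less RNA per cell cannot be told apart either in such bulk tissue.

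**Figure D4:**
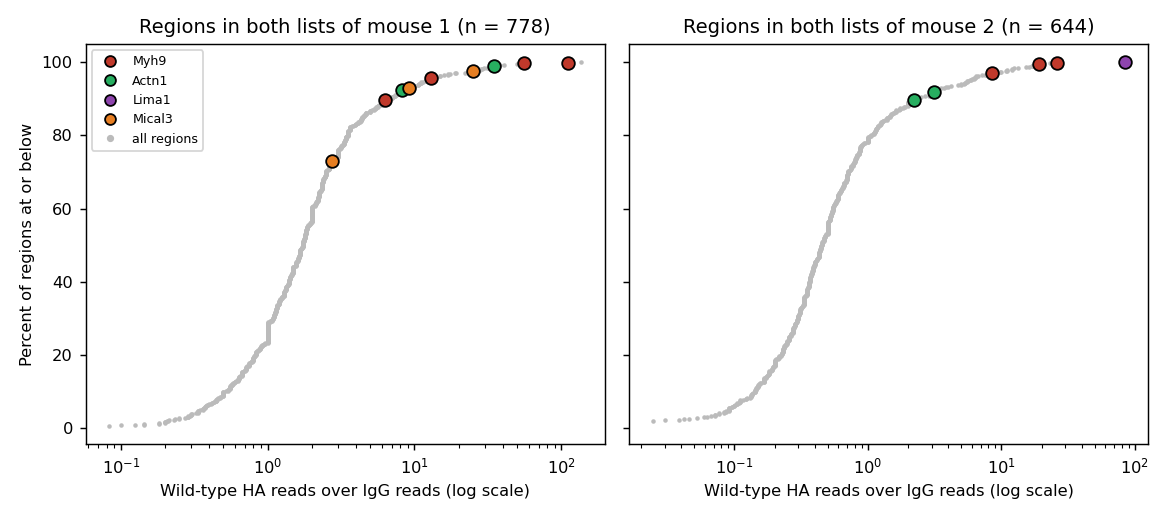
Wild-type HA reads over IgG reads (log scale) in regions with the same coordinates in both lists of a mouse, against the percent of regions at or below that ratio, for 778 regions of mouse 1 and 644 of mouse 2 (grey) with the regions of 4 members marked. Ratios of 0 are not drawn, and an IgG count of 0 was set to 3. The largest Myh9 region lies at 111 in mouse 1 and 25.9 in mouse 2, and the Lima1 region at 84.0 in mouse 2, against medians of 1.75 and 0.452. The wild-type reads also took part in choosing these members.

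Which direction the authors' adjusted p tests is not stated, so a value of 1 on a region with low HA reads need not be a conflict. In some regions over wild type, such as that of Lima1, the values follow the reads in neither direction. In the authors' deposited table the 3′ region of Mical3 with 28 HA against 252 wild-type reads has an adjusted p of 1, while the region with 10 against 11 has 0.00649. The Lima1 region has an adjusted p of 0.0220 in the authors' deposited table for mouse 1, at 12 HA against 75 wild-type reads, and of 1 for mouse 2, at 12 against 84. By the authors' deposited values, 11 of 11 and 8 of 8 Mprip regions over IgG are below an adjusted p of 0.05, with the highest at 9.52e-52 and 1.41e-10. For Myh9 the authors' deposited values are below 0.05 in 2 of 4 and 3 of 3 regions over IgG and in 2 of 5 and 0 of 3 over wild type. The authors' empirical false discovery rate gives fewer calls over IgG. It is below 10% in 9 of 11 and 4 of 8 Mprip regions, and in 0 of 4 and 3 of 3 Myh9 regions. Against wild type it is below 10% in 2 of 5 and 0 of 3 Myh9 regions.

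Other genes of actin and myosin biology gave a wider setting. In 7 lists of 92 genes, the 5 members included, 27 genes had a region somewhere. Without the members, 14 genes in mouse 1 and 12 in mouse 2 had at least 20 reads over wild type, and their median fold was 1.18 and 1.07, next to 1.15 and 1.10 over all genes measured in those lists. At 0.25-fold or less stood 1 of the 14 and 0 of the 12, next to 1.4% and 1.44% of all genes in those lists. Over IgG, 8 and 6 such genes were measured, 0 of them at 4-fold or more, next to 3.2% and 3.91% of all genes, with medians of 0.875 and 1.20 next to 0.839 and 0.822 over all genes.

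The 1 gene at 0.25-fold or less was Actn4, which encodes the second nonmuscle alpha-actinin. It held 43 HA against 626 wild-type reads in mouse 1. That is 0.0486-fold (interval 0.0348 to 0.0663), in a list where 27 of 1932 genes were at 0.25-fold or less. It had no region over wild type in mouse 2, whose list holds 36 regions on chromosome 7 against 545 in mouse 1. Over IgG it held 5 HA against 0 IgG reads in mouse 1. Of the 50-base stretches of Actn4 transcripts 6.58% also occur in Actn1 or Capn12.

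Among myosins, Myh14, the heavy chain of nonmuscle myosin IIC, held 145 HA against 354 wild-type reads in mouse 1, which is 0.290-fold (interval 0.237 to 0.353). Myo10, a filopodial myosin, was 0.515-fold (interval 0.291 to 0.898) and 0.571-fold (interval 0.323 to 1.01) over wild type. Of the myosin light chain kinases and phosphatase partners, Cdc42bpb, the kinase MRCK-beta, was 0.517-fold and 0.537-fold over wild type, and 1.48-fold in both mice over IgG. Rock2, another kinase of that list, held 77 HA against 36 wild-type reads in mouse 1 and 61 against 35 in mouse 2. It was 1.51-fold (interval 1.01 to 2.32) and 0.996-fold (interval 0.647 to 1.56) over wild type, and 0.578-fold and 0.560-fold over IgG. Cdc42bpa, the kinase MRCK-alpha, was 0.836-fold and 0.628-fold over wild type. The 5 genes of the list measured in mouse 1 over wild type ranged between 0.517-fold and 1.51-fold, and the 4 in mouse 2 between 0.537-fold and 0.996-fold.

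Of the MICAL list, Mical2, which encodes another MICAL monooxygenase, held 187 HA against 114 wild-type reads in mouse 1, which is 1.16-fold (interval 0.915 to 1.48). Micall1, a MICAL-like adaptor of recycling endosomes, was 1.19-fold (interval 0.656 to 2.23) and 1.43-fold (interval 0.710 to 3.06). Of the crosslinkers, Flna, filamin A, held 49 against 24 in mouse 2, 1.17-fold (interval 0.702 to 1.99), and Shroom2 held 26 against 20, 0.743-fold (interval 0.399 to 1.40). Of the genes of filament capping and turnover, Capza2, a subunit of capping protein, was 1.42-fold (interval 0.681 to 3.11) and 1.18-fold (interval 0.631 to 2.29). Its partner Capzb was 1.89-fold in mouse 2 (interval 0.908 to 4.29). Cap1, a cyclase-associated protein that recycles actin, was 1.24-fold (interval 0.648 to 2.45) and 1.14-fold (interval 0.686 to 1.95). The intervals of Micall1, Flna, Shroom2, Capza2, Capzb and Cap1 include the list median. Those of Tmod1, a pointed-end cap, lie above it, at 2.97-fold (interval 1.09 to 10.1) and 2.57-fold (interval 1.04 to 7.62).

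**Figure D5:**
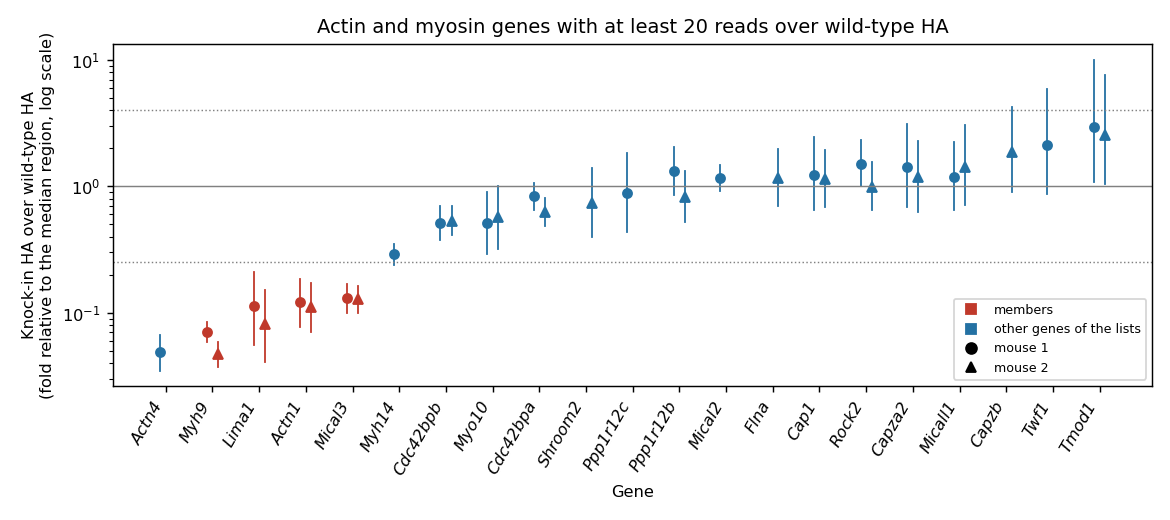
Fold of knock-in HA over wild-type HA (log scale) for actin and myosin genes with at least 20 reads, ordered by their mean, with members in red, other genes in blue, circles for mouse 1, triangles for mouse 2 and bars for the 95% counting interval. Dotted lines mark 0.25-fold and 4-fold. The 4 members lie between 0.0471 and 0.131, Actn4 at 0.0486 beside them, and the remaining genes between 0.290 and 2.97.

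Markers of the hippocampus and of cell types it holds were compared with the same regions. Slc17a7, the vesicular glutamate transporter of excitatory neurons, held 184 HA against 122 wild-type reads in mouse 1, and Prox1, a granule neuron factor, held 35 against 12 in mouse 1 and 28 against 14 in mouse 2. Of 50 marker genes in 9 lists, 8 had a region. Of 6 smooth muscle and pericyte markers and 6 endothelial markers, cells in which Myh9 and actinins are also abundant, none had a region in any list. In each of the lists other than mouse 2 over IgG, 1 marker of either kind lies on a chromosome with at least 100 regions, and in mouse 2 over IgG none does. Igf2, of the meningeal list, held 4 HA against 11 wild-type reads in mouse 1. The part of vascular or meningeal tissue in the values of Myh9, Lima1 and Actn1 was not tested.

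The members share some features that their selection did not use. Their main coding sequences are 6810 bases in Mprip, 5982 in Mical3, 5883 in Myh9, 2679 in Actn1 and 2262 in Lima1, each above the median of 1749 over 1013 measured genes. Mprip had 35 genes with a longer coding sequence, Mical3 52 and Myh9 58 of the 1013, whereas Actn1 had 299 and Lima1 395. The GC content of the coding sequence was 57.3% in Myh9, 56.8% in Mical3, 54.6% in Actn1, 53.9% in Mprip and 53.1% in Lima1, around the median of 53.5% over those genes. Myh9 and Lima1 lie on the same chromosome, and the 4 members that are low over wild type are all on the minus strand. Myh9 shares 1.11% of its 50-base stretches with Myh10 and Myh11, Mical3 2.09% with other genes and Lima1 none.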

How the data were processed

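RNA of 5 immunoprecipitations was sequenced as 50-cycle single-end reads, per the labels' protocols. The submitters' processing notes name TopHat and TopHat2, and, per the file headers, rtracklayer 1.28.9 wrote the lists. How regions were called is not stated in the labels or headers. The values that the deposited lists give per region are of other kinds than a normalised unit: whole unscaled read numbers for both libraries, an adjusted p-value and an empirical false discovery rate (eFDR) by the authors. Region lengths are whole multiples of 1 bin size per chromosome and list, such as 215 bp on chromosome 11 and 285 bp on chromosome 15, so wide regions also hold introns.

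A region counted for a gene where the deposited annotation places it on that gene. HA and control reads were summed per gene, a control of 0 was set to 3, and each ratio was divided by the list's median over regions that hold 20 reads or more. Intervals are Clopper-Pearson. Over mice, the mean and SD of log2 folds are given. Exons, transcripts and shared 50-base stretches come from GENCODE M21. Python 3.11.15, pandas 2.3.3, numpy 2.4.6 and scipy 1.17.1 were used, and the calculation was checked on simulated data. The members, gene lists, markers and limits were chosen with earlier results of these data known. Beside the members the text names Cyfip1, from each actin list up to 3 further genes with the most reads, and marker genes by count. Slc17a7, Prox1 and Igf2 are named as examples chosen after their values were seen.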

Additional observations from a re-analysis of the deposited data

How the results depend on the processing

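Of 104 alternative values of the members' folds, 73 stayed within the SD between mice or their counting interval and 31 moved beyond it. Where a member was called, at 4-fold or more or 0.25-fold or less in both mice, 0 changed side. Actn1 and Mical3 over IgG were not called, so their changes of sign, given below, do not enter that 0. Values with 1 mouse left out stay within the SD or interval by arithmetic, so they show no stability. A floor of 1 count and the limit to regions that touch an exon returned the reported value for every member. The limit to regions inside the gene did so for Lima1, Mical3 and Mprip. The limit to an adjusted p below 0.05 did so for Mprip and for Lima1 over IgG. Such unchanged values are among the 73 and show no stability either. On the log2 scale over wild-type HA, the pooled read ratio as the scale gave -3.29 for Myh9, -2.55 for Lima1, -2.12 for Mical3 and -2.27 for Actn1, and unscaled ratios gave -3.47, -2.73, -2.30 and -2.45 in that order. Without the region with the most reads, Myh9 was at -3.63, Mical3 at -2.20 and Actn1 at -2.38, and with only regions below the authors' adjusted p of 0.05, Mical3 was at -0.90 and Actn1 at -1.46. A list median from regions with 10 reads gave -3.06 for Mical3 and -3.21 for Actn1, and one from regions with 50 reads gave -2.82 and -2.97. Over IgG, the pooled ratio gave 0.55 for Myh9, -1.46 for Actn1 and 2.32 for Mprip, and unscaled ratios gave 2.03 for Myh9, 1.34 for Mical3, 0.018 for Actn1 and 3.80 for Mprip. The median of the same chromosome gave -0.094 for Actn1 and 0.071 for Mprip, a list median from regions with 50 reads gave -1.14 for Actn1 and 2.64 for Mprip, and Actn1 was at 0.43 without its region with the most reads. With only regions below the authors' adjusted p of 0.05, Myh9 was at 0.37 and Mical3 at 0.93. Lima1 has 1 region per list, so it gave no value without its largest region.

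The count of genes at 4-fold or more over IgG, 19, was 4 on the scale of the chromosome, 11 without each gene's largest region, 12 with regions inside the gene, and 28 to 35 with 1 mouse left out. That at 0.25-fold or less over IgG, 0, was 8 with the pooled ratio, 1 on the chromosome scale, 2 with the median from regions with 50 reads, 3 for genes with 10 reads and 7 to 13 with 1 mouse left out. At 4-fold or more over wild type, 8 genes became 50 with the pooled ratio, 27 unscaled, 3 without the largest region, 4 with regions inside the gene, 23 for genes with 10 reads, 4 for genes with 50 reads and 28 to 34 with 1 mouse left out. At 0.25-fold or less over wild type, 13 genes became 5 with the pooled ratio, 5 unscaled, 3 with the authors' adjusted p below 0.05, 3 without the largest region, 8 with regions inside the gene and 24 to 27 with 1 mouse left out. The counts with 1 mouse left out need the limit in 1 mouse only, and the cause of the other moves was not tested. No paired analysis was possible because no result here comes from a test that could take a block; the folds over IgG are ratios within each numbered mouse. Depth limits Lima1, with 12 HA reads, and single regions of Myh9, Actn1 and Mical3 that hold 10 HA reads or fewer.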
